A study of Mus musculus with 2 samples.

Results

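Classical monocytes, the Ly6C-high, CCR2-bearing monocytes that leave the blood for inflamed tissue, were chosen from single-cell RNA counts of whole mouse lung by the transcripts each cell held. A cell was a member when its raw counts of unique molecular identifiers (UMIs, each standing for 1 captured transcript) of Ccr2, F13a1, Ly6c2 and Ms4a4c summed to at least 5, with F13a1 or Ccr2 present. Members also held at least 1 UMI of Csf1r, under 0.1% of their UMIs in C1qa, C1qb and C1qc together, at most 1 UMI of Treml4, Adgre4 and Cd300e together, and 0 UMIs of Cd3e, Cd3d, Cd3g and Cd79a. This rule found 487 members among 27974 kept cells, of which 272 came from the control library and 215 from the Cre library. Levels of the rule's own genes are therefore descriptions of the choice and not results.

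The lungs came from mice aged 5 weeks of 2 genotypes. The control mice were Lkb1f/f, carrying floxed alleles of Lkb1, the kinase gene Stk11, without a recombinase. The other mice were Nkx2.1 Cre;Lkb1f/f and carried the same floxed alleles with a Cre recombinase under Nkx2.1, a transcription factor gene of the lung epithelial lineage. Cells of 3 mice per genotype were pooled into 1 library each, made with the 10x Chromium 3' v3 chemistry, so no replicate spread exists, no test between genotypes can be made, and genotype cannot be told apart from pool and library.

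Classical monocytes are released from bone marrow through CCR2 and circulate briefly. In tissue they can become macrophages or antigen-presenting cells, and in blood they can become nonclassical monocytes, the patrolling cells marked by Treml4, Ace and Spn. In response to microbial products they make interleukin-1 beta, tumour necrosis factor and neutrophil-attracting chemokines through the transcription factor NF-kB, while IL-4 and IL-13 induce another set of genes that includes Arg1, Retnla and Mrc1.

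The libraries held 13587 control and 16821 Cre barcodes with 74219499 and 81598779 UMIs. Members had a median of 7694 UMIs in the control and 5694 in the Cre library, and together held 2270730 and 1449596 UMIs. Levels below are CPM, the usual depth-scaled count, here a gene's UMIs over all UMIs of the members in 1 library, and a fold is the Cre CPM over the control CPM. Ranges in parentheses are exact 95% intervals, Clopper-Pearson for shares and conditional Poisson for folds, and cover counting error only. A gene was measured when it had at least 50 UMIs in the members of both libraries together. The median measured gene was 0.12 higher in the Cre library on the log2 scale with a pseudocount of 5 CPM. Calls of higher or lower needed a distance of 1.5-fold or more from this median, and list medians are log2 ratios less that median. A fold of 1 therefore lies a little under the typical gene.

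Some members carried the transcripts of a further cell type. In 20 control (7.35%) and 21 Cre members (9.77%), markers of 1 of 10 other lineages held 1% or more of the cell's UMIs. Markers of AT2 cells, the surfactant cells of the alveolus, reached that level in 6 control and 7 Cre members. Neutrophil markers did so in 12 control and 2 Cre members, airway secretory markers in 0 and 3, and red cell markers in 0 and 6, where they held up to 49.1% of a cell's UMIs. Scrublet, which scores barcodes for likeness to simulated doublets, called 15 control and 10 Cre members, among them 13 and 7 of these mixed cells. Over all members the median share of AT2 markers was 0.0946% of UMIs in the control and 0.0880% in the Cre library, and T cell, B cell and alveolar macrophage markers reached the limit in no member. Results are given with all members and without these mixed-lineage cells, which leaves 252 control and 194 Cre members. The libraries shared 68 barcodes, and no barcode was a member in both.

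**Figure D1:**
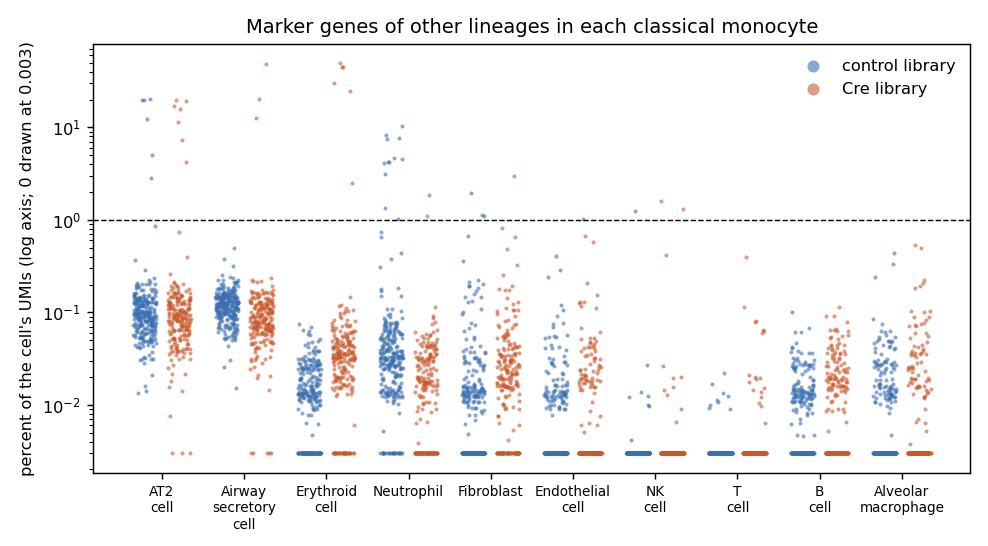
Percent of each member's UMIs (log axis, with 0 drawn at 0.003) that fell on the marker genes of 10 other lineages, 1 point per classical monocyte, control in blue and Cre in orange, with the 1% limit dashed. Most points lie under the limit, and 20 control and 21 Cre members lie above it in at least 1 lineage, with the red cell and airway points above it only in the Cre library.

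By the genes that the rule did not use, the members carried known monocyte genes in both libraries. Among genes outside the rule with at least 200 CPM in both libraries, Ms4a6c, a membrane protein of the MS4A family, ranked first by the smaller of its ratios to the other kept cells in the libraries, 13.4 in the control and 13.7 in the Cre library. Ifi204, an interferon-inducible gene of the DNA-sensing family, followed at 12.5 and 12.2. S100a4, a calcium-binding protein of motile cells, stood at 3009 and 2204 CPM, and Plac8, a gene used to mark Ly6C-high monocytes, at 3771 and 2965 CPM. Irf5, a transcription factor of inflammatory gene induction, Emilin2, Plbd1, Pld4 and Ifitm6 were among the other 11 leading genes. These levels describe the chosen cells. The ratios are to all other kept cells and do not set classical apart from nonclassical monocytes.

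The members differed from nonclassical monocytes of the same libraries in several functional genes. Fn1, the matrix protein fibronectin, stood at 1025 CPM in classical against 77.0 CPM in nonclassical control cells, and at 1407 against 182 CPM in the Cre library. Chil3, a chitinase-like secreted protein of maturing Ly6C-high monocytes, was 5.66-fold higher (5.29 to 6.06) in classical than in nonclassical cells of the control and 3.49-fold (3.25 to 3.76) in the Cre library. Ace, the angiotensin-converting enzyme, was lower in classical cells, at 29.5 against 499 CPM in the control and 46.9 against 552 CPM in the Cre library. Fcgr4, an activating antibody receptor, and Spn, the sialoprotein CD43, were also lower in classical cells of both libraries. C1q transcripts, the mark of resident macrophages, were at 0 UMIs in 261 of 272 control and 196 of 215 Cre members. Both monocyte classes are defined by opposite values of shared genes, so these contrasts describe the rules and were not tested.

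The rule's own genes placed the choice. Ly6c2 stood at 1022 CPM in control and 727 CPM in Cre members, Ccr2, the receptor for CCL2, at 701 and 900 CPM, F13a1, the A chain of coagulation factor XIII, at 440 and 457 CPM, and Ms4a4c at 468 and 413 CPM. Ly6c2 (chromosome 15, 75108158 to 75111970, GRCm38) has a near-identical neighbour, Ly6c1 (75044018 to 75048830), and reads shared by the pair may have been lost or split, so its level is uncertain. The 4-gene sum had a median of 18.5 in control and 15 in Cre members. At the edge of the rule, 12 control and 12 Cre cells had a sum of 4 and met every other clause, while 6 control and 13 Cre members had a sum of 5. On the nonclassical clause, 65 control and 44 Cre members held 1 UMI, and 30 control and 28 Cre cells were left out with 2.

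Classical monocytes made up 2.11% (1.87 to 2.38) of 12863 kept control cells and 1.42% (1.24 to 1.62) of 15111 kept Cre cells, a log2 ratio of -0.57 (-0.84 to -0.31). Among cells with a UMI of Ptprc, the leukocyte antigen CD45, they were 3.67% of control and 2.59% of Cre cells. The rule counts UMIs, so it finds more members in deeper cells. When kept cells with 1000 or more UMIs were thinned to 1000 and the sum was lowered to 2, 51 of 11175 control and 73 of 13224 Cre cells were members, and the log2 ratio turned to 0.27 (-0.26 to 0.82). That left out 1688 control and 1887 Cre kept cells. When cells of 3000 or more UMIs were thinned to 3000 with a sum of 3, an alternative chosen after seeing the data, 181 of 7665 control and 161 of 8139 Cre cells were members, a ratio of -0.26 (-0.57 to 0.06). Both intervals include 0, so no difference in share was detectable at equal depth. Without thinning, the ratio was -0.46 with a sum of 3 and -0.58 over cells with 1000 or more UMIs. Thinning changed the depth, the sum and the cells that entered together, and their parts were not tested, so fewer monocytes cannot be told apart from fewer UMIs per monocyte.

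**Figure D2:**
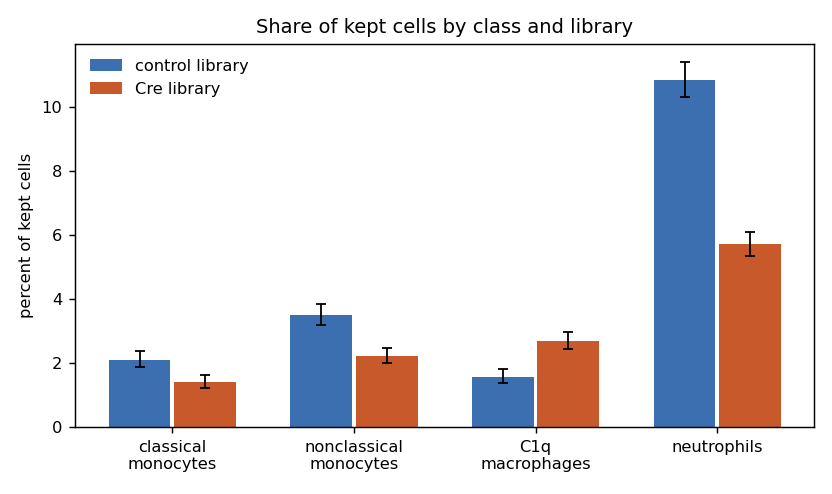
Percent of kept cells in each class by library, with exact 95% intervals as error bars that cover counting error only. Classical monocytes were 2.11% of control and 1.42% of Cre cells, and C1q macrophages, at 1.58% and 2.70%, showed the opposite order.

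Nonclassical monocytes, defined by at least 3 UMIs of Treml4, Adgre4 and Cd300e, were also a smaller share of the Cre library (log2 ratio -0.66, -0.86 to -0.45). There were 1.66 nonclassical per classical monocyte in the control and 1.57 in the Cre library. Macrophages with C1q, in contrast, were a larger share (0.77, 0.53 to 1.02), and their number per classical monocyte was 0.746 in the control and 1.90 in the Cre library. Neutrophils, which share an origin with monocytes in marrow progenitors, had a log2 ratio of -0.92 (-1.05 to -0.80). Median depths were lower in the Cre library in each of these classes, at 5432 and 3589 UMIs in nonclassical monocytes and 6899 and 4983 in C1q macrophages, and their shares were not recomputed at equal depth.

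Stk11, the gene targeted in the epithelium, was present in the monocytes of both libraries. It had 71 control and 63 Cre UMIs, or 31.3 and 43.5 CPM, a fold of 1.39 (0.974 to 1.98). Of 20 measured genes of the AMPK and LKB1 pathway, 1 was called higher and none lower, with a median of 0.00, where 6.83% of all measured genes were higher and 5.5% lower. The 3' tags may lie outside the deleted part, so this level checks little.

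Of 6269 measured genes, 428 (6.83%) were called higher and 345 (5.5%) lower in Cre members, or 334 of 5722 (5.84%) and 302 (5.28%) without mixed-lineage cells. The split depended on the scaling, with 686 higher and 213 lower when the all-gene median was not taken off, and 326 higher and 512 lower with TMM factors from edgeR.

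NF-kB-induced inflammatory genes had the lowest median of the 26 lists. Of 25 measured genes in the list of inflammatory cytokines and NF-kB genes, 14 were called lower and 0 higher, with a median of -0.83, against backgrounds of 5.5% and 6.83% over all genes. Without mixed-lineage cells 13 were lower and 1, Osm, was higher, with a median of -0.64. The median ran from -0.92 to -0.64 over the other ways of choosing members, scaling and filtering that were tried, all below 0. In nonclassical monocytes of the same libraries 14 of 23 measured genes of this list were lower (background 4.56%) and 1 higher (4.05%), with a median of -0.87. In C1q macrophages 10 of 25 were lower (8.23%) and 2 higher (9.24%), with a median of -0.45. In neutrophils 7 of 24 were lower (7.9%) and 2 higher (8.72%), with a median of -0.41. Lymphocytes lay near their all-gene median or above it, with 1 of 24 lower (2.28%) and 3 higher (2.86%) in B cells and 0 of 21 lower (3.15%) and 3 higher (3.36%) in T cells, at medians of 0.02 and 0.19.

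Among secreted products, Cxcl2, a chemokine that recruits neutrophils, stood at 4084 CPM in control and 1168 CPM in Cre members, a fold of 0.286 (0.271 to 0.301), or 0.336 (0.318 to 0.355) without mixed-lineage cells. The median cell held 2789 CPM in the control and 0 in the Cre library. After thinning each cell to 1000 UMIs, 70.6% (64.8 to 75.9) of control and 33.0% (26.8 to 39.7) of Cre members held a UMI of Cxcl2, against 5.62% and 5.65% of B cells, which do not make it and show the free RNA. The median depths of those B cells before thinning were 3241 and 2224 UMIs. Fewer Cre members held any Cxcl2, 48.4% against 86.4% without thinning, and the upper quartile was also lower, at 1155 against 5769 CPM, while the highest cells reached 27485 and 30189 CPM. Il1b, the precursor of interleukin-1 beta, stood at 3761 CPM in control and 1905 CPM in Cre members, a fold of 0.507 (0.485 to 0.529), or 0.595 without mixed-lineage cells. The median cell held 2828 CPM of Il1b in control and 711 CPM in Cre members. Tnf, the tumour necrosis factor gene, was at 669 and 372 CPM, a fold of 0.556 (0.503 to 0.614). Ptgs2, the inducible cyclooxygenase, was at 395 and 195 CPM, and Il1rn, the interleukin-1 receptor antagonist, at 98.6 and 46.9 CPM. Il6, with 119 and 101 CPM, Il1a, with 44.5 and 57.9 CPM, and Il18, with 50.6 and 73.8 CPM, were measured and not called.

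Feedback inhibitors of NF-kB were lower as well. Nfkbia, which encodes the inhibitor that holds NF-kB in the cytoplasm and is itself induced by it, stood at 2834 CPM in control and 1161 CPM in Cre members, a fold of 0.410 (0.388 to 0.432), or 0.464 without mixed-lineage cells. At equal depth 91.9% (88.0 to 94.9) of control and 52.6% (45.7 to 59.4) of Cre members held a UMI of it, against 21.3% and 23.8% of B cells. Tnfaip3, the ubiquitin-editing enzyme A20, was at 733 and 410 CPM, and Nfkbiz, a nuclear cofactor of NF-kB, at 1305 and 701 CPM. Of the NF-kB subunits, Rel was lower, with a fold of 0.566 (0.488 to 0.656), and Nfkb2 was lower at 48.4 and 27.6 CPM, while Nfkb1 had a fold of 1.35 (1.15 to 1.57) and was not called. Tnfsf9, the ligand 4-1BBL, had the smallest fold of the list, 0.268 (0.196 to 0.361). Osm, the cytokine oncostatin M, went the other way at 205 and 330 CPM, with a UMI in 60.3% of control and 57.2% of Cre members.

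The 5' flank of 2 of the lower genes is shown because both were lower in Cre members and both hold matches to the NF-kB motif. The lines give the bases before the RefSeq start site (GRCm38.p6), read along the gene's own strand, with matches to the NF-kB motif in capitals. The motif searched was GGGA, any 2 bases and TTCC, which read on the other strand is GGAA, any 2 bases and TCCC. The Cxcl2 stretch, at chr5:90903649-90903868 on the plus strand, ends 30 bases before the start.

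Cxcl2: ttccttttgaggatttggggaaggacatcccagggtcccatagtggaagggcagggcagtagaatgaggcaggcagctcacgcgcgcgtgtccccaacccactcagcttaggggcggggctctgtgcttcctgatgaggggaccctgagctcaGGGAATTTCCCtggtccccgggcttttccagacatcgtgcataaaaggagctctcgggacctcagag

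Nfkbia: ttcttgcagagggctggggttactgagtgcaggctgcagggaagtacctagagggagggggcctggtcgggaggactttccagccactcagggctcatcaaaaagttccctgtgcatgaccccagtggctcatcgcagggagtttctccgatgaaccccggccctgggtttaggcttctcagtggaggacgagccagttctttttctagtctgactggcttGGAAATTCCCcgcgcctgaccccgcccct

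In Cxcl2, matches on both strands overlap in 1 run of capitals, and Nfkbia, at chr12:55492648-55492897 on the minus strand, holds 1 match. Of the 14 list members called lower, 10 had a promoter in the RefSeq table and 2 of these (20%), Nfkbia and Nfkb2, held a match within 250 bases before a start. Of the 11 not called, 5 had a promoter and 1, Il6, held a match. Over all measured genes with a promoter the share was 1.6%, 80 of 5003. A match describes letters in the window and not binding. Cxcl2 belongs to the chemokine list and is not in these counts.

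**Figure D3:**
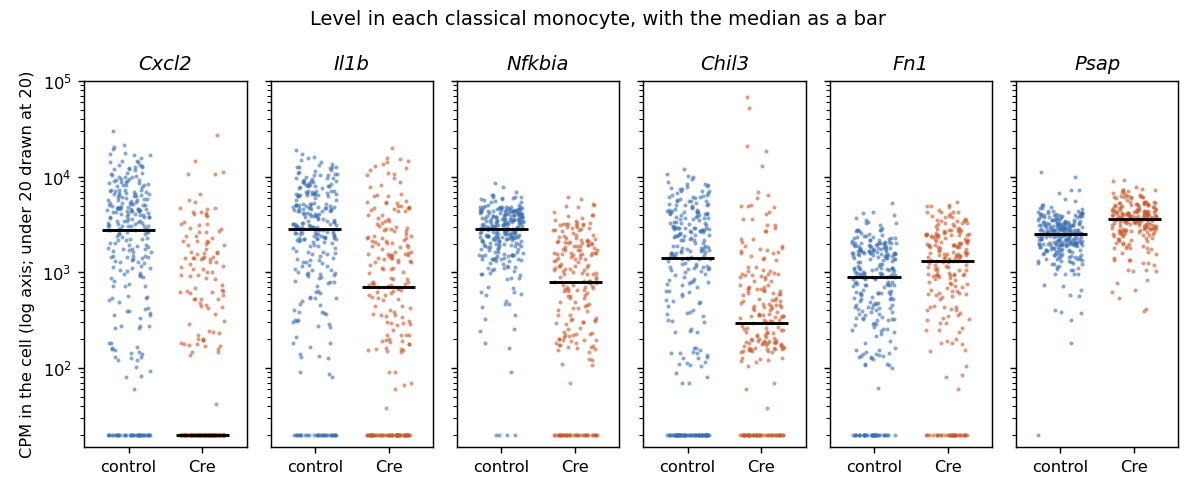
CPM of 6 genes in each classical monocyte (log axis, values under 20 drawn at 20), control in blue and Cre in orange, with the median as a black bar. Cxcl2, Il1b, Nfkbia and Chil3 have lower medians in Cre members (0, 711, 785 and 294 CPM against 2789, 2828, 2835 and 1424), and Fn1 and Psap have higher ones.

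Receptors that sense microbial products were lower in part. Of 21 measured pattern recognition genes, 6 were lower and 2 higher (median -0.36), against 5.5% and 6.83% of all genes, or 5 of 20 lower and 1 higher without mixed-lineage cells. Cd14, the co-receptor for lipopolysaccharide, stood at 1052 and 498 CPM, a fold of 0.474 (0.435 to 0.515). Clec4e, the receptor Mincle, was at 805 and 401 CPM, and Nlrp3, the sensor of the inflammasome that activates interleukin-1 beta, at 371 and 175 CPM. Tlr4, the lipopolysaccharide receptor itself, was called higher from few counts, 22 control and 41 Cre UMIs. Of 24 measured Fc and phagocytic receptors, 8 were lower and 3 higher, or 4 and 3 without mixed-lineage cells. The shares over all genes were 5.5% and 6.83%, or 5.28% and 5.84% without those cells. Among them Clec12a, an inhibitory lectin, had a fold of 0.503 (0.399 to 0.629), although at equal depth its UMIs were in 10.3% of control and 10.7% of Cre members. Trem1, an amplifier of inflammatory signals, had a fold of 0.316 (0.236 to 0.418). Fcgr3, the low-affinity IgG receptor, had a fold of 1.12 (0.987 to 1.28).

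Of 12 measured chemokines, 5 were lower and 3 higher, against 5.5% and 6.83% of all genes. Besides Cxcl2, the lower ones were Ccl3 (616 and 377 CPM) and Ccl4 (848 and 537 CPM), inflammatory CC chemokines, Ccl2 (164 and 111 CPM), the ligand of CCR2, and Cxcl10 (297 and 119 CPM), which attracts activated T cells. Constitutive monocyte chemokines differed less, with Ccl6 at 1389 and 1303 CPM and Ccl9 at 715 and 732 CPM. Ccl7, Ccl24 and Ccl5 were called higher. In Ccl7, which stood at 5.28 and 36.6 CPM, 92.5% of the Cre UMIs came from 3 cells, and Ccl5 was not called without mixed-lineage cells.

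Ranked by the interval bound nearest 1, the 14 lowest genes were Acod1, Cxcl2, Il1r2, Tnfsf9, Traf1, Slpi, Ccrl2, Trem1, Marcksl1, Cxcl10, Card19, Cd14, Il1b and Ifitm2, and 11 of them were also among the 14 lowest without mixed-lineage cells. Acod1, which makes the metabolite itaconate in activated macrophages, had the smallest fold, 0.203 (0.134 to 0.298), from 231 control and 30 Cre UMIs, and without mixed-lineage cells its fold was 0.321 (0.196 to 0.504) and it was not among the 14 lowest. Traf1, an adaptor of TNF receptors, stood at 250 and 78.0 CPM, Ccrl2, a chemerin-binding receptor, at 626 and 228 CPM, and Slpi, an inhibitor of neutrophil elastase, at 643 and 229 CPM. Marcksl1, an actin regulator, stood at 451 and 169 CPM. Ifitm2, an interferon-induced membrane protein, was at 1827 and 926 CPM with a UMI in 100% of control and 95.8% of Cre members. All 14 had folds under 1 with intervals below 1 in nonclassical monocytes too. Acod1, Il1r2 and Trem1 stood lower in members than in the other kept cells of both libraries. In control and Cre, those other cells held 171 and 67.4 CPM of Acod1, 114 and 38.9 of Il1r2, and 172 and 49.4 of Trem1. Without mixed-lineage cells the folds of Il1r2 and Trem1 were 0.261 and 0.405. How much of these transcripts in members came from other cells was not tested.

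Of 24 measured genes of granules and of neutrophil-like monocytes, 11 were lower and 3 higher (median -0.52), against 5.5% and 6.83% of all genes. Without mixed-lineage cells 7 of 20 were lower and 1 higher, against 5.28% and 5.84%. List medians were below 0 in other classes too. In T cells 15 of 24 were lower (background 3.15%) and 2 higher (3.36%), with a median of -0.64. In B cells 6 of 23 were lower (2.28%) and 7 higher (2.86%), with a median of -0.28. In neutrophils 14 of 24 were lower (7.9%) and 2 higher (8.72%), with a median of -0.92. How much of the list in members was free RNA was not tested. S100a8 and S100a9, the calprotectin subunits of neutrophils, stood at 1143 and 1467 CPM in the control against 48.3 and 66.9 CPM in the Cre members. The 3 control cells with most of them held 42.6% of their summed control UMIs. Neutrophils were 10.8% of control and 5.72% of Cre kept cells, and at equal depth 8.57% of control and 3.32% of Cre B cells held a UMI of S100a8, against 10.3% and 4.19% of members. At that depth the members thus lay near the B cell background, and no expression in monocytes was read from it. S100a11 and S100a6, in contrast, were present in most members, S100a11 in 97.8% of control and 89.8% of Cre members and S100a6 in 100% and 99.1%. S100a11 had a fold of 0.589 (0.544 to 0.637), and S100a6, at 3375 and 2309 CPM, was not called without mixed-lineage cells. Wfdc17, a secreted regulator of macrophage activation, stood at 1381 and 703 CPM, and Hp, haptoglobin, at 565 and 375 CPM.

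Chil3 showed how sums and cells can differ. Its summed level was 2048 CPM in control and 2177 CPM in Cre members, a fold of 1.06 (1.02 to 1.11). The median cell, however, held 1424 CPM in control and 294 CPM in Cre members, and 57.4% of control but 19.5% of Cre members reached 1000 CPM. In the Cre library 3 cells held 54.9% of the Chil3 UMIs, and the highest cell reached 68546 CPM. At equal depth 58.5% (52.4 to 64.4) of control and 37.7% (31.2 to 44.5) of Cre members held a UMI of Chil3. The share in B cells was 2.35% in the control and 18.6% in the Cre library, so Chil3 outside monocytes was more common there. Chil3 was therefore lower in the typical Cre member while a few cells carried very high levels. The 3 highest Cre cells held 11175, 12072 and 15741 UMIs, against a Cre median of 5694. Alveolar macrophage markers held 0.492%, 0.207% and 0.54% of their UMIs, under the 1% limit, where the median member had 0. The highest share of these markers in a control member was 0.444%. Whether the 3 cells were monocytes was not tested. Without mixed-lineage cells its fold was 1.24 (1.19 to 1.3).

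Of 18 measured genes induced by IL-4 and IL-13, 9 were higher and 0 lower, against 6.83% and 5.5% of all genes. The list median was 0.62. Chil4, at 0 control UMIs, lies far above that median, so setting it to its bound leaves the median at 0.62 and checks little. Without mixed-lineage cells 6 of 15 were higher and 1 lower (median 0.44). List medians were above 0 in lymphocytes too. In T cells 7 of 16 were higher (background 3.36%) and 0 lower (3.15%), with a median of 0.42. In B cells 7 of 18 were higher (2.86%) and 2 lower (2.28%), with a median of 0.20. In nonclassical monocytes 4 of 11 were higher (4.05%) and 2 lower (4.56%), and in C1q macrophages 11 of 21 (9.24%) and 4 (8.23%). How much of the list in members was free RNA was not tested. Arg1, arginase 1, had 2 UMIs in 2 control members and 93 UMIs in 10 Cre members, of which 91.4% lay in 3 cells. Mrc1, the mannose receptor, stood at 23.8 and 94.5 CPM and was present in 3.68% of control and 13% of Cre members. Ccl24, the eotaxin-2 gene, was at 6.61 and 156 CPM, and 3 Cre cells held 75.2% of it. Retnla, which encodes RELM-alpha, was at 195 and 1145 CPM with all members, but its fold turned to 0.424 (0.341 to 0.525) without mixed-lineage cells. With all members, 3 cells held 99.1% of the control and 3 held 77.3% of the Cre UMIs of Retnla, so its fold rested on few cells. At equal depth 0.735% of control and 11.6% of Cre members held a UMI of Retnla, against 0.764% and 14.3% of B cells. Retnla in typical members was therefore at the level of free RNA. Il4ra, the receptor chain for both cytokines, stood at 41.0 and 61.4 CPM and was not called.

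Of 31 measured genes of monocyte-to-macrophage maturation, 9 were higher and 3 lower (median 0.22), where over all genes 5.5% were lower and 6.83% higher. Without mixed-lineage cells 11 of 30 were higher and 2 lower (median 0.37). Of the 31, 17 had a level in the members of at least 0.5 of that in the other kept cells. Among those 0 were higher and 3 lower (median -0.12), an alternative chosen after seeing the data. The list median was also above 0 in lymphocytes. In T cells 10 of 30 were higher (background 3.36%) and 2 lower (3.15%), with a median of 0.40. In B cells 8 of 32 were higher (2.86%) and 0 lower (2.28%), with a median of 0.28. In nonclassical monocytes 5 of 29 were higher (4.05%) and 3 lower (4.56%), with a median of -0.07. Spp1, osteopontin, was at 7.05 and 148 CPM, with a UMI in 2.21% of control and 22.3% of Cre members, and 3 Cre cells held 72.4% of it. At equal depth its shares were 0.368% and 4.65%, against 0.109% and 2.71% of B cells. Apoe, the lipid carrier of macrophages, was lower at 1371 and 701 CPM, a fold of 0.511 (0.476 to 0.549). Fn1 was not called and stood at 1025 and 1407 CPM, a fold of 1.37 (1.29 to 1.46), with per-cell medians of 899 and 1307 CPM. Psap, the precursor of lysosomal saposins, was not called either, with a fold of 1.32 (1.27 to 1.37) and medians of 2515 and 3633 CPM, and Tgfbi, a matrix protein that was not called, had a fold of 1.37 (1.25 to 1.5). Ctsd, the protease cathepsin D, was called higher at 298 and 515 CPM. None of Spi1, Klf4, Irf8 and Zeb2, transcription factors of the monocyte lineage, was called, and of 23 measured factors 2, Cebpb and Ets2, were lower. Cebpb, needed for monocyte survival and inflammatory induction, stood at 3348 and 2349 CPM and was not called without mixed-lineage cells.

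A subset of members carried antigen presentation genes. H2-Ab1, a chain of MHC class II, stood at 536 and 927 CPM, a fold of 1.73 (1.6 to 1.87). It was the only 1 of 8 measured class II genes called higher, and 0 were lower, with a list median of 0.38. Over all genes 6.83% were higher and 5.5% lower. UMIs of H2-Aa, H2-Ab1 or H2-Eb1 were found in 28.3% of control and 40.0% of Cre members, and 12.1% and 18.1% reached 1000 CPM of the 3. B cells make these genes, so T cells give the background, and at equal depth 1.97% of control and 3.53% of Cre T cells held H2-Ab1, against 12.5% and 19.1% of members. Cd209a, a lectin of monocyte-derived and conventional dendritic cells, was present in 22 control and 27 Cre members. Members with at least 2 UMIs of it numbered 16 of 272 in the control and 24 of 215 in the Cre library. In those the H2-Ab1 level was 4798 CPM in control and 4228 CPM in Cre members, against 258 and 343 CPM in the other members. Their Ly6c2 was lower, at 332 and 243 CPM against 1067 and 813 CPM, while Flt3, a receptor of dendritic cell precursors, was higher, at 152 and 55.0 CPM against 7.97 and 13 CPM. The rule thus took in some cells with dendritic cell genes. The Cd209a group was set after seeing the data, and neither it nor its part in the H2-Ab1 fold was tested.

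Interferon-induced genes showed little common difference, with 1 higher and 5 lower of 45 measured (median -0.10), or 5 and 6 of 43 without mixed-lineage cells. Over all genes 6.83% were higher and 5.5% lower, or 5.84% and 5.28% without those cells. The lower ones included Ifi27l2a (2439 and 1502 CPM) and Isg15 (84.1 and 46.2 CPM). Of 36 measured genes of oxidative phosphorylation and 23 of glycolysis and hypoxia, 0 and 1 were called higher and 0 and 1 lower. Of 11 measured glucocorticoid-responsive genes 4, Tsc22d3, Txnip, Mt1 and Mt2, were higher, and 1, Il1r2, was lower, against 6.83% and 5.5% of all genes. Of the 11, 7 had a level in the members of at least 0.5 of that in the other kept cells. Among those 1 was higher and 1 lower, an alternative chosen after seeing the data. Tsc22d3, which encodes the NF-kB-binding protein GILZ, stood at 83.7 and 152 CPM, a fold of 1.82 (1.49 to 2.22). Immediate early and dissociation genes, a sign of handling, did not share a direction in members. There 4 of 31 were higher and 4 lower (median 0.03), against 6.83% and 5.5% of all genes. The lower ones were Fosb, Dusp2, Socs3 and Nfkbia, which is also in the NF-kB list. In nonclassical monocytes 6 of 31 were lower (background 4.56%) and 2 higher (4.05%), with a median of -0.27. In C1q macrophages 13 of 33 were lower (8.23%) and 6 higher (9.24%), with a median of -0.44. In B and T cells 6 of 33 were higher (2.86% and 3.36%) and 0 lower (2.28% and 3.15%). In members the heat shock genes Hspa1a (62.5 and 186 CPM) and Hspa1b (31.3 and 139 CPM) were higher. Fos had a fold of 1.20 (1.14 to 1.26) there. The immediate early and dissociation median in members, 0.03, lay apart from the -0.83 of the NF-kB list. The part of handling in the NF-kB values was not tested. Mitochondrial UMIs were a median of 3.94% in control and 4.60% in Cre members.

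**Figure D4:**
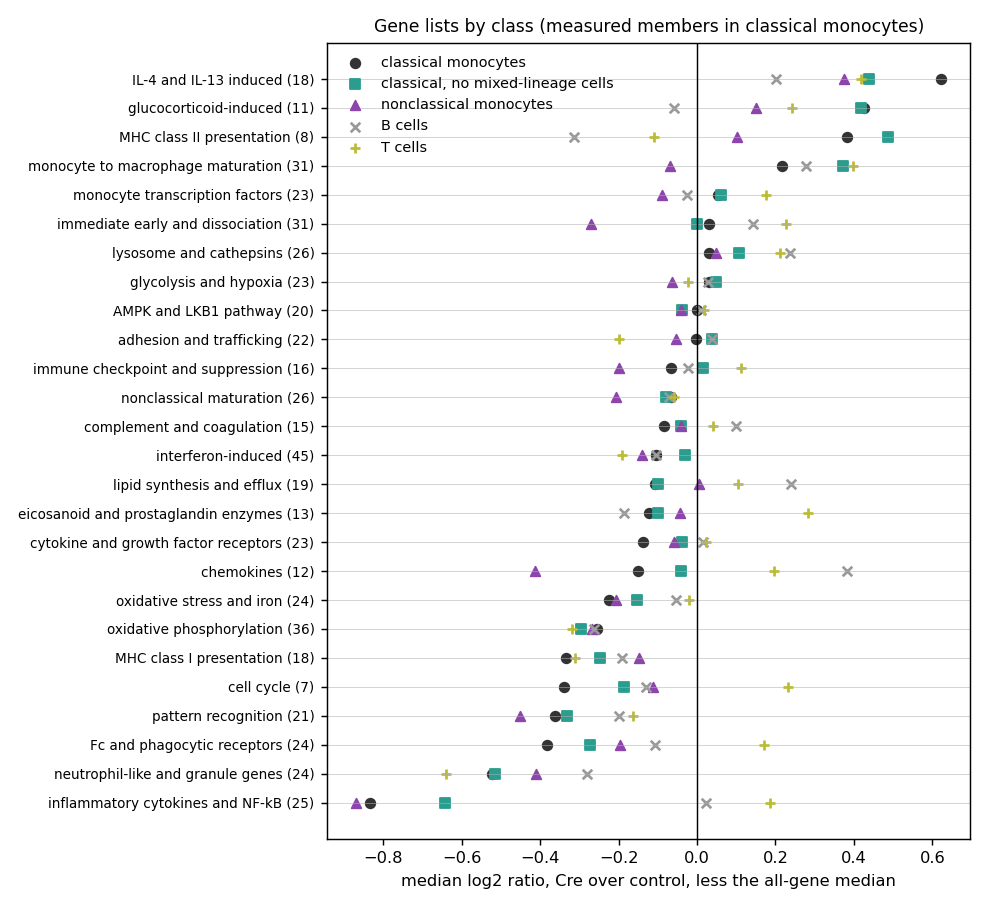
Median log2 ratio of Cre over control, less the all-gene median of the class, for 26 gene lists with the number of measured members in classical monocytes in brackets. The inflammatory and NF-kB list has the lowest median in classical (-0.83) and nonclassical monocytes (-0.87) and lies near 0 in B cells, while the IL-4 and IL-13 list has the highest in classical monocytes (0.62).

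Ranking by size alone was led by genes of other cells. Of the 14 highest genes, 12 had over 90% of their Cre UMIs in 3 cells, among them the airway genes Reg3g, Tff2, Clca1, Muc5b and Scgb3a1 and the chitinase-like gene Chil4. Without mixed-lineage cells the 14 highest were Arg1, Ccl24, Mgl2, Dab2, Gatm, Mrc1, Hsph1, Dusp6, Cd209a, Rgs2, Ear2, Cd164, Sla and H2-Ab1, of which only Ccl24 and Mgl2 were in both sets. The more widely spread of these were Dusp6, a phosphatase that limits ERK signalling, Rgs2, a regulator of G protein signalling, and Sla, an adaptor that dampens receptor signals. Dusp6 stood at 58.6 and 153 CPM with a UMI in 34.2% of control and 53.5% of Cre members. Rgs2 stood at 139 and 249 CPM and Sla at 88.5 and 172 CPM, with 3 Cre cells holding 8.31% of the Rgs2 and 7.6% of the Sla UMIs. Mgl2, a lectin of IL-4-exposed macrophages and dendritic cells, was at 7.05 and 111 CPM and was present in 4.65% of Cre members. In Cre members with 2 or more UMIs of Cd209a it stood at 725 CPM, against 2.44 CPM in the others.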

How the data were processed

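The deposited files hold whole-number UMI counts per gene and cell barcode for 31053 genes. The authors aligned reads to mm10 with Cell Ranger 3.1.0 and STAR, per the submitters' processing notes. Which barcodes the authors filtered is not given in the sources used here. Cells with at least 200 genes, 500 UMIs and at most 20% mitochondrial UMIs were kept. Doublets were scored with Scrublet (scanpy 1.11.5) and kept, and mixed-lineage cells were left out as an alternative. UMIs of members were summed per library. The 14 highest and 14 lowest genes named were ranked by the interval bound nearest 1, with at least 50 CPM and at least 0.5 of the level in other kept cells in the higher library, leaving out mitochondrial, ribosomal, haemoglobin, antigen receptor, predicted, dissociation, sex-linked and rule genes. Libraries hold pooled mice with no map from cells to mice, so no p-value was computed. Thinning to 1000 UMIs left out cells below that depth, which were no members, 4 control and 27 Cre B cells, and 0 control and 19 Cre T cells. The functions were checked on simulated data. The members and gene lists were chosen with earlier results of these data known. Versions were Python 3.11.15, numpy 2.4.6, scipy 1.17.1 and edgeR 4.0.16, the last used for TMM factors.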

Additional observations from a re-analysis of the deposited data

How the results depend on the processing

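No paired analysis was possible because each genotype has 1 library. The share of classical monocytes changed direction, to a log2 ratio of 0.27 with kept cells of 1000 or more UMIs thinned to 1000 and the marker sum lowered to 2. It was -0.26 at 3000 UMIs with a sum of 3, and both intervals include 0. The number of genes called higher was 129 with each member thinned, 187 with a pseudocount of 20 CPM, 743 with at least 20 UMIs, 124 with at least 200 UMIs and 686 without the all-gene median taken off. The number called lower was 112, 182, 522, 122 and 213 in the same order. Fewer genes are measured after thinning and with at least 200 UMIs. The median of the IL-4 and IL-13 list was 1.10 when C1q was allowed up to 0.3% of UMIs. The MHC class II median was 0.096 with a marker sum of at least 3, 0.72 with C1q up to 0.3% and 0.23 as a mean of per-cell CPM. Retnla reversed to -1.34 without mixed-lineage cells. The causes were not tested. Counting intervals hold no spread between mice, and genes below 50 UMIs were not measured.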

Other observations

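Cells that met every clause but held more C1q than allowed numbered 79 in the control and 106 in the Cre library. More of the Cre than of the control cells lay near the limit of 0.1%. Raising it to 0.3% of UMIs gave 274 control and 231 Cre members in place of 272 and 215. The cells above 0.1% carried C1qa at 5691 and 3996 CPM and little Ly6c2, at 24.9 and 35.3 CPM. Their F13a1 stood at 1241 and 917 CPM. Arg1 had 0 UMIs in the control and 267 UMIs in the Cre library in these cells. Spp1 was at 14.6 and 700 CPM, Fn1 at 36.6 and 1155 CPM and Chil3 at 129 and 3218 CPM. Ccl24 was at 397 and 1407 CPM. Cxcl2 was at 7171 and 4492 CPM, and Il1b at 1463 and 1565 CPM. These values were not tested.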
